A study of Mus musculus with 4 samples.

Results

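The 26S proteasome genes were followed through mouse fibroblasts that had been infected with reprogramming factors. They are the protein-coding genes with a symbol that begins Psma, Psmb, Psmc or Psmd and goes on with a number, without pseudogenes and without the immunoproteasome genes Psmb8, Psmb9 and Psmb10. The rule took 37 of the 27597 genes that the deposited tables list. By role these were 8 alpha-ring subunits, 3 catalytic and 4 other constitutive subunits of the beta ring, the thymus-specific catalytic subunit Psmb11, 6 ATPases and 3 other subunits of the 19S base, 8 subunits of the 19S lid and 3 chaperones of base assembly. The remaining gene, Psmc3ip, encodes a partner of the meiotic recombinases and is no proteasome subunit, and the rule took it for its symbol alone.

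The study compared fibroblasts from the skin of OGXICR mouse embryos, age D13.5, after infection with different sets of factors through a lentivirus inducible by doxycycline. OSKM cells received OCT4, SOX2, KLF4 and c-MYC, G3SKM cells received GATA3 in place of OCT4, SKM cells received SOX2, KLF4 and c-MYC without either, and control cells received empty vector. Each of the 4 groups is 1 deposited sample that stands for 2 replicates combined, so every gene has 1 value per group, no spread between replicates and no test. The time between infection and harvest and the share of cells that carried every factor were not stated in the labels.

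The proteasome degrades proteins that carry chains of ubiquitin. Its 20S core is a barrel of outer alpha rings, which gate the entrance, and inner beta rings, in which Psmb5, Psmb6 and Psmb7 hold the cutting sites. The 19S particle caps the barrel: its base carries the Psmc ATPases, which unfold the substrate, and its lid carries the enzyme Psmd14, which takes the ubiquitin chain off. The transcription factor NRF1, the product of Nfe2l1, is known to raise these genes together when proteasome activity falls short, by binding antioxidant response elements in their promoters.

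Promoter sequence from RefSeq (GRCm38.p6) was found for 30 of the 37 members, and 5 are shown for genes named below. Psma1 and Psmc6 each passed the rule of size given below in 1 comparison, where 2.55% and 4.43% of all genes were called higher. Neither passed it with the GC trend, described further below, taken out. Psma7, Psmb6 and Psmd8 were among those furthest from empty vector. Each line gives the 200 bases before the annotated start, 5′ to 3′. Capitals mark the Sp box GGGCGG, the NF-Y box CCAAT, the ETS core CCGGAA and the antioxidant response element core TGACNNNGC, on either strand.
Psma1, chr7:114276117-114276316, minus strand: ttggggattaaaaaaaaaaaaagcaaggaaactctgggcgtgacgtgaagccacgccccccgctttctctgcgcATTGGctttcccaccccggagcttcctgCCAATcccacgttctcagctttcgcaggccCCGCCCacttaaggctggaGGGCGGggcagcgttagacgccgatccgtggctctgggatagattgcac
Psma7, chr2:180042465-180042664, minus strand: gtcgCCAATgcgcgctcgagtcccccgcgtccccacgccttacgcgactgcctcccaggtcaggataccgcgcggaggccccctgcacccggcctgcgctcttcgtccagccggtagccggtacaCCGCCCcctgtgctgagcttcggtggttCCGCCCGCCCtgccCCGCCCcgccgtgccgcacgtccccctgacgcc
Psmb6, chr11:70525157-70525356, plus strand: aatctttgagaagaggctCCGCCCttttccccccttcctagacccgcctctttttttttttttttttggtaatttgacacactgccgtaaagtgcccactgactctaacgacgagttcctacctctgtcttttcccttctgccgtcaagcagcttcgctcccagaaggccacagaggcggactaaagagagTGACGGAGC
Psmc6, chr14:45329624-45329823, plus strand: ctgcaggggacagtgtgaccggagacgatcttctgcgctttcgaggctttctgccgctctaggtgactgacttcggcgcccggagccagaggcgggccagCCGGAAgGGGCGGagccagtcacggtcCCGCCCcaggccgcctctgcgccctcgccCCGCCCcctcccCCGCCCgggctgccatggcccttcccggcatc
Psmd8, chr7:29180674-29180873, minus strand: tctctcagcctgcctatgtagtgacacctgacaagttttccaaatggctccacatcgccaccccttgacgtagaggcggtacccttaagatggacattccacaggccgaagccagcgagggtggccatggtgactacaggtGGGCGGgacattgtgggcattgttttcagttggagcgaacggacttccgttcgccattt
Over the 250 bases before the start, the ETS core stood in 13 of 30 member promoters (43.3%), against 12.2% of 27025 promoters of all genes and 15.2% of 17492 promoters of protein-coding genes. Among its holders were Psmc6 and the base subunit gene Psmd2, but none of Psma1, Psma7, Psmb6 and Psmd8. The Sp box stood in 17 member promoters (56.7%), against 32.9% of all promoters and 42.7% of coding ones. The NF-Y box stood in 13 (43.3%, against 34.5% and 36.3%), and the E-box CACGTG, the letters that MYC binds with MAX, in 2 (6.67%, against 6.05% and 6.64%). The antioxidant response element core stood in 5 (16.7%, against 10.2% and 10.5%), namely the promoters of Psmb5, Psmb6, Psmc6, Psmd9 and Psmd12. The ETS core and its complement share letters where they meet as TTCCGGAA, copies of the Sp box may share letters, and a promoter was counted once for each motif. Member promoters also had a higher GC content, with a median of 56.2% against 52% over all promoters. These counts describe letters and say nothing on whether a factor was bound.

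The authors' values are RPKM, the usual reads per kilobase of gene scaled to library size, and the low values fell on multiples of 1 read when the whole gene, introns included, was taken as its length. By these multiples the groups held about 74700000 reads in OSKM, 101500000 in G3SKM, 54000000 in SKM and 111100000 in empty vector. The genes that set the groups apart were highest where the labels place them: Pou5f1, which encodes OCT4, had 3.69 RPKM in OSKM cells, 0.212 in G3SKM cells, 0.297 in SKM cells and no reads in empty vector cells, and Gata3 had 0.571 RPKM in G3SKM cells, against at most 0.0836 elsewhere. Myc, which all infected groups received, had 10.5 RPKM in OSKM, 6.31 in G3SKM and 11.9 in SKM, and 16.0 in empty vector, so its delivery does not show in the gene's value. Sox2 had 110.5 RPKM in OSKM, 70.7 in G3SKM, 187 in SKM and 0.260 in empty vector, and Klf4 had 13.9, 8.55 and 19.3 RPKM in the infected groups and 6.26 in empty vector. The shared factors thus differed between the infected groups too, so a comparison between these is not one of OCT4 or GATA3 alone. All 7 fibroblast markers were listed, with 6 at 1 RPKM or more in each infected group and 7 in empty vector cells, and summed to 374 RPKM in OSKM, 367.5 in G3SKM, 642 in SKM and 862 in empty vector. Of 5 keratinocyte markers, Krt14 and Krt6a passed 1 RPKM in each infected group and none did in empty vector. The 5 summed to 19.4 RPKM in OSKM, 27.1 in G3SKM, 38.9 in SKM and 0.0744 in empty vector. Among them, Trp63 had 0.00584 RPKM in OSKM and no reads in G3SKM, SKM and empty vector. The epidermis, which holds keratinocytes, had been taken off the skin before culture, and which cells gave the keratin reads was not tested. The 6 macrophage markers summed to 1.84, 3.20, 3.77 and 26.6 RPKM in OSKM, G3SKM, SKM and empty vector. No endothelial, erythroid, Schwann cell or melanocyte marker reached 1 RPKM, and of 4 skeletal muscle markers 1 did, in empty vector alone. The part of such shifts in the results below was not tested. In cultures measured in bulk, fewer cells of a type and less RNA per cell cannot be told apart.

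All 35 members other than Psma8 and Psmb11 were at 1 RPKM or more in at least 1 group of every comparison. Psma8, the testis form of an alpha subunit, had 22 reads in OSKM, 23 in G3SKM, 4 in SKM and 8 in empty vector. Psmb11, which takes the place of Psmb5 in the thymic epithelium, had 2 and 4 reads in OSKM and G3SKM and none in SKM, and was set to 0 in empty vector, where it is not listed. Both tissue-restricted forms were thus close to or at 0 in these fibroblasts.

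For a comparison of levels between genes, reads were divided by the length of the principal mature transcript in place of the whole gene. On that scale, in RPKM per length of transcript, the 31 subunits of the standard particle had a median of 99.96 in OSKM, 93.4 in G3SKM, 78.7 in SKM and 76.2 in empty vector. These subunits stand in equal number in a particle capped at both ends. Their levels still differed 12.8-fold between the highest and the lowest in OSKM, 15.3-fold in G3SKM, 24.7-fold in SKM and 11.7-fold in empty vector. Psma7 and Psma6, both of the alpha ring, and the catalytic Psmb6 were highest in the infected groups. Psma7 stood at 295.5 in OSKM, 375.5 in G3SKM, 336 in SKM and 197 in empty vector. At the low end were Psma2, Psma3 and the lid subunit Psmd11, with Psma2 at 23.1 in OSKM, 24.8 in G3SKM, 13.6 in SKM and 20.3 in empty vector. These last have long principal transcripts, of 2911, 2846 and 2848 bases, against 914 for Psma7, so their place at the bottom depends on the length assumed. The chaperones, which leave the finished particle, were below all 31 subunits in OSKM, G3SKM and empty vector, while Psmd9 in SKM (18.7) was above Psma2 and Psma3. Psmd5 was lowest of them, between 6.89 (SKM) and 10.2 (empty vector). Its place also depends on the length assumed, 4397 bases against 2597 for Psmd9 and 1430 for Psmd10. In reads scaled to library size, with no division by length, Psmd10 was the lowest chaperone in every group.

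**Figure D1:**
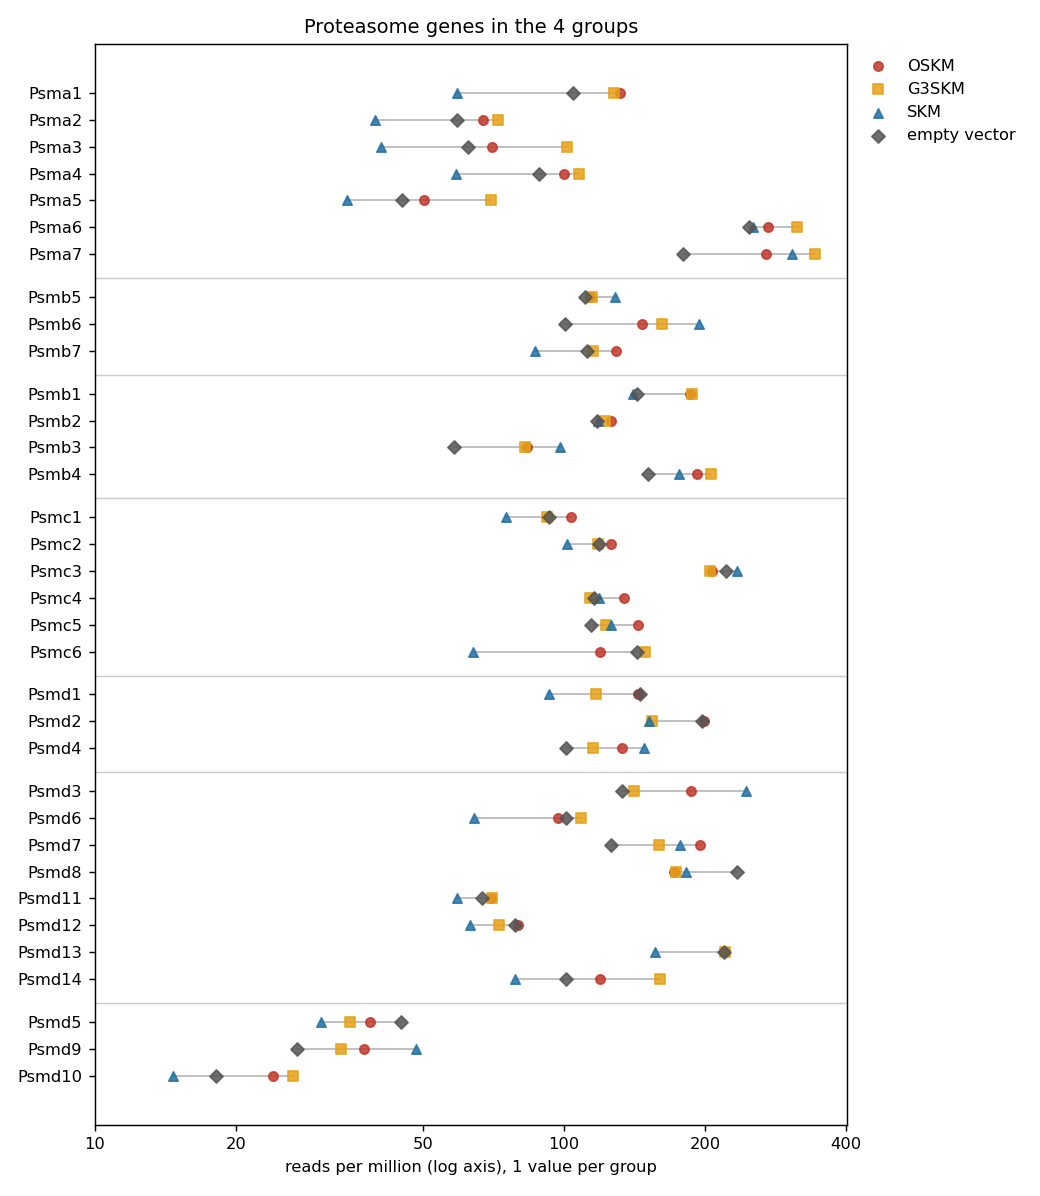
Reads scaled to library size (RPM, log axis) of 34 members in each group, 1 value per group, with members ordered by role (alpha ring, catalytic beta, other beta, base ATPases, other base subunits, lid, chaperones). The SKM triangle lies to the left for most alpha-ring genes and for Psmc6, and the empty vector diamond lies to the left for Psma7, Psmb3, Psmb6 and Psmd7 and to the right for Psmd8.

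Ratios between groups were taken as log2 of (RPKM + 1) over (RPKM + 1), and a gene was called higher or lower at an absolute value of 1 or more. Folds of the RPKM themselves are given with 95% Clopper-Pearson intervals from reads, which cover counting error only, since reads after PCR are not independent molecules and replicates are not separate here. Every comparison shares at least 1 sample with others, and those without SKM set columns of different deposited tables side by side. The SKM column was the same in all 3 tables.

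OSKM cells against empty vector cells differed little in the members, whose log2 ratios ran from -0.43 to 0.60. None of the 35 was called higher, against 4.82% of 10212 genes, and none lower, against 4.16%. The median member was at 0.14, against 0.18 for all genes, and the interquartile range was 0.29 for members, against 0.62 for all genes. On the deposited scale 29 members were above 0 and 6 below, but relative to the median of all genes 14 were above and 21 below. That median was shifted by 0.18 in OSKM, 0.17 in G3SKM and 0.15 in SKM against empty vector, so the sign of a member inside these shifts depends on the scaling.

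At a lower bar of 0.5, OSKM cells had 3 members above empty vector, against 22% of all genes, and none below, against 11.2%. The lid subunit Psmd7, a scaffold partner of the deubiquitinase Psmd14, had 24.2 RPKM in OSKM, 19.7 in G3SKM, 21.8 in SKM and 15.6 in empty vector. Its OSKM value was 1.55-fold that of empty vector (1.52 to 1.59). The alpha-ring gene Psma7 had 44.6 RPKM in OSKM, 56.6 in G3SKM, 50.7 in SKM and 29.7 in empty vector, so all infected groups lay above the control. Psmb6, the subunit with caspase-like activity, had 58.9 RPKM in OSKM, 65.1 in G3SKM, 77.9 in SKM and 40.5 in empty vector, again with every infected group above. Psma7 was 1.5-fold (1.47 to 1.53) and Psmb6 1.46-fold (1.42 to 1.49) higher in OSKM than in empty vector.

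G3SKM cells against empty vector cells likewise had no member of 35 called higher, against 7.11% of 10298 genes, or lower, against 3.75%, with a median of 0.10 for members and 0.17 for all genes. At the lower bar 3 members were above empty vector, against 25.9% of all genes, and none below, against 11.6%. Psma7 was 1.91-fold that of empty vector (1.88 to 1.94), a log2 ratio of 0.91, and Psmb6 1.61-fold (1.57 to 1.65). The third, Psma3 of the alpha ring, had 4.67 RPKM in G3SKM, against 3.23 in OSKM, 1.87 in SKM and 2.88 in empty vector, a ratio of 1.62 to empty vector (1.57 to 1.67). All 7 expressed alpha-ring genes lay above empty vector in G3SKM cells, where 63.1% of all genes did, at log2 ratios from 0.24 to 0.91. All 7 were also above the median of all genes. In OSKM cells the same 7 lay between 0.11 and 0.57, but only Psma1 and Psma7 were above the median of all genes. The 6 base ATPases in G3SKM cells lay between -0.11 and 0.10, all below the median of all genes.

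Psmd8 went the other way. This lid subunit, the homologue of yeast Rpn12, had 26.5 RPKM in OSKM, 26.8 in G3SKM, 28.1 in SKM and 36.0 in empty vector. The infected groups lay close together, and empty vector stood above them. Its folds to empty vector were 0.736 in OSKM (0.720 to 0.752), 0.743 in G3SKM (0.729 to 0.758) and 0.781 in SKM (0.763 to 0.799), with log2 ratios of -0.43, -0.41 and -0.35 that stayed negative under all 10 alternatives tried. Only the chaperone Psmd5 and the base scaffold Psmd1 were, like Psmd8, below empty vector in every infected group on the deposited scale. Psmd5 had 2.04 RPKM in OSKM, 1.86 in G3SKM, 1.61 in SKM and 2.38 in empty vector. Psmd1 had 1.92, 1.56 and 1.24 RPKM in those infected groups and 1.94 in empty vector, so its OSKM value was within counting error of the control. Above empty vector in every infected group were 13 members, among them Psma6, Psma7, Psmb3, Psmb4, Psmb6, Psmd3, Psmd4 and Psmd7. Psma6 in SKM was within counting error of the control (1.02-fold, 0.998 to 1.04). Over all genes, 64.9% lay above empty vector in OSKM, 63.1% in G3SKM and 58.3% in SKM. Relative to the median of all genes, 6 members were above and 14 below throughout. The share of all genes on the same side in every infected group was not computed, and these comparisons share the control. The counts of members are thus not set against genes at large.

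**Figure D2:**
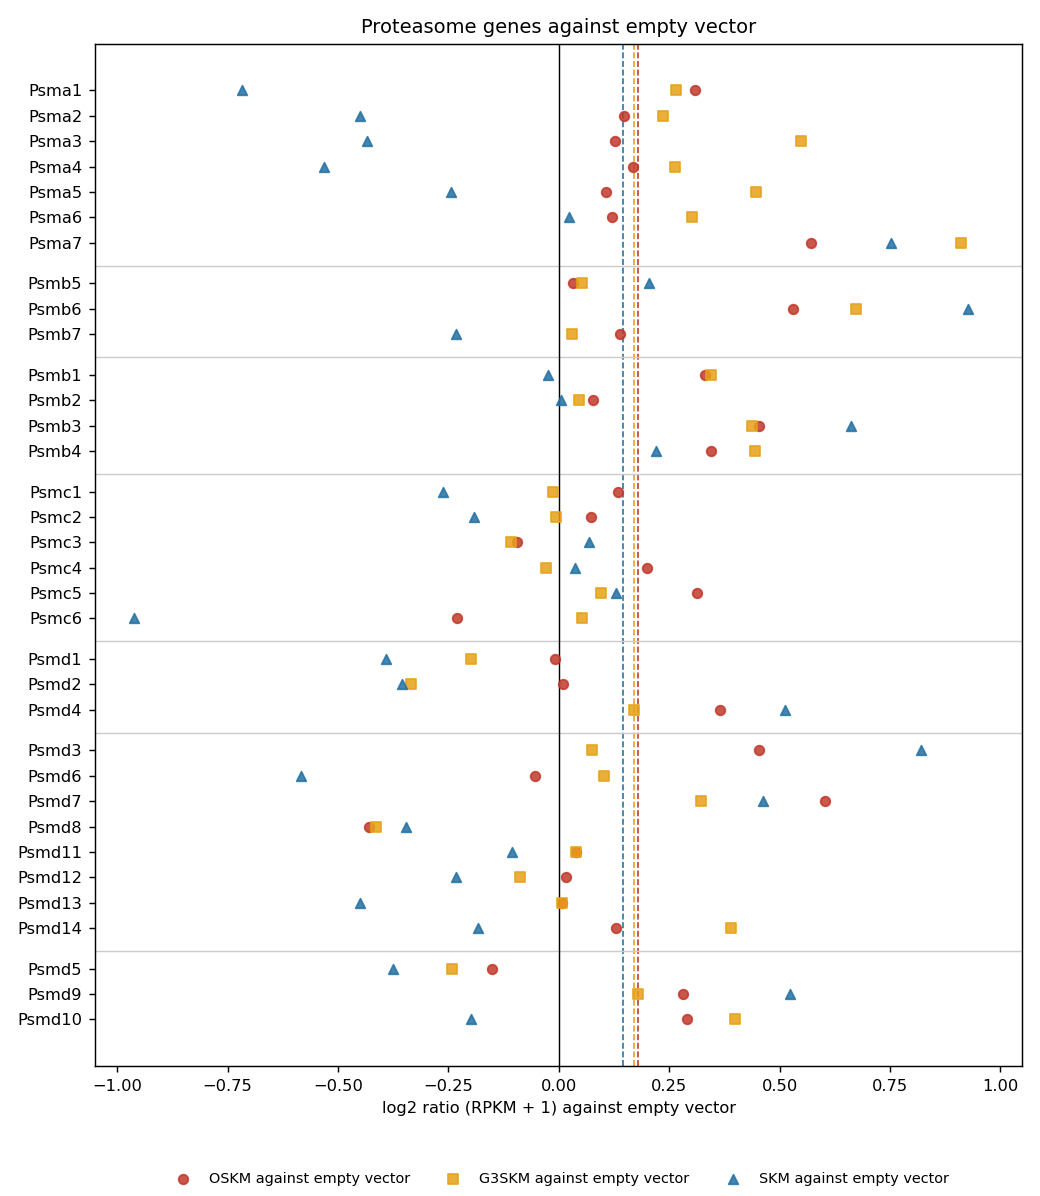
Log2 ratio of (RPKM + 1) of 34 members in OSKM, G3SKM and SKM against empty vector, ordered by role as in the plot of RPM, with a dashed line in the same colour at the median of all genes for each comparison (0.18, 0.17 and 0.15). Psma7 and Psmb6 lie to the right in all comparisons and Psmd8 to the left, while the SKM triangles spread from -0.96 (Psmc6) to 0.93 (Psmb6).

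The remaining alpha-ring genes differed in where SKM stood. The place of SKM is given here and for the other genes below on the deposited scale, and with the GC trend of the SKM library, described further below, taken out, 13 of 35 members lay on the other side of empty vector. Psma2 had 4.74 RPKM in OSKM, 5.10 in G3SKM, 2.79 in SKM and 4.18 in empty vector. Psma4 had 13.8 RPKM in OSKM, 14.9 in G3SKM, 8.15 in SKM and 12.2 in empty vector, and Psma5 had 2.18 RPKM in OSKM, 3.03 in G3SKM, 1.5 in SKM and 1.96 in empty vector, so G3SKM was highest and SKM lowest for each of these. Without the GC trend, the log2 ratio of SKM to empty vector was 0.14 for Psma2, in place of -0.45, and stayed negative for Psma4 and Psma5. Psma6 had 7.97 RPKM in OSKM, 9.18 in G3SKM, 7.38 in SKM and 7.25 in empty vector, with G3SKM alone set apart. In the base, the ubiquitin receptor Psmd4 had 13.4 RPKM in OSKM, 11.6 in G3SKM, 15.0 in SKM and 10.2 in empty vector, with the control lowest.

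The other catalytic subunits stood closer to the control than Psmb6. Psmb5, the chymotrypsin-like site and the main target of proteasome inhibitors, had 27.0 RPKM in OSKM, 27.4 in G3SKM, 30.5 in SKM and 26.4 in empty vector. Its folds to empty vector were 1.02 in OSKM (0.996 to 1.052), 1.04 in G3SKM (1.01 to 1.06) and 1.16 in SKM (1.13 to 1.19), so OSKM was within counting error. Psmb7, the trypsin-like site, had 2.30 RPKM in OSKM, 2.06 in G3SKM, 1.55 in SKM and 2.00 in empty vector, with SKM lowest. The order of the groups differed among the 3 catalytic genes, since SKM was the highest group for Psmb5 and Psmb6 and the lowest for Psmb7, whose transcript GC is 40.8% against 56.6% and 51.6% for the others. Without the GC trend, the log2 ratio of SKM to empty vector was 0.34 for Psmb7, in place of -0.23, and -0.13 for Psmb5, in place of 0.21, while Psmb6 kept its side at 0.86.

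The non-catalytic beta subunits lay above empty vector in OSKM and G3SKM, with medians of 0.34 and 0.39. Psmb3 had 8.27 RPKM in OSKM, 8.18 in G3SKM, 9.72 in SKM and 5.78 in empty vector, so the control stood lowest. Psmb4 had 67.0 RPKM in OSKM, 72.0 in G3SKM, 61.4 in SKM and 52.6 in empty vector, in the same pattern. Psmb1 had 8.23 RPKM in OSKM, 8.32 in G3SKM, 6.22 in SKM and 6.34 in empty vector, so SKM lay with the control. Psmb2 differed least, with 3.93 RPKM in OSKM, 3.82 in G3SKM, 3.68 in SKM and 3.67 in empty vector. Among these 4 genes only Psmb2 stayed below the median of all genes in OSKM and G3SKM.

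The base ATPases form a ring of 6 that pulls substrates into the barrel. Psmc1 had 7.85 RPKM in OSKM, 6.99 in G3SKM, 5.72 in SKM and 7.06 in empty vector, and Psmc2 had 6.81 RPKM in OSKM, 6.38 in G3SKM, 5.49 in SKM and 6.42 in empty vector, with SKM lowest for both. Without the GC trend Psmc2 turned, with SKM at a log2 ratio of 0.38 to empty vector in place of -0.19, while Psmc1 stayed at -0.23. Psmc3 had 16.8 RPKM in OSKM, 16.6 in G3SKM, 18.9 in SKM and 18.0 in empty vector, where SKM was highest, though its log2 ratio to empty vector was -0.25 without the GC trend. Psmc4 had 16.0 RPKM in OSKM, 13.53 in G3SKM, 14.2 in SKM and 13.8 in empty vector, and Psmc5 had 20.7 RPKM in OSKM, 17.6 in G3SKM, 18.1 in SKM and 16.4 in empty vector. OSKM was the highest group for Psmc1, Psmc2, Psmc4 and Psmc5, at no more than 1.26 times the control. Psmc6 stood apart from its partners through its low SKM value, given with that comparison.

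In the lid, Psmd13 had 13.3 RPKM in OSKM, 13.3 in G3SKM, 9.39 in SKM and 13.2 in empty vector, so SKM alone was low, at 0.712-fold of the control (0.694 to 0.730), and it stayed low at a log2 ratio of -0.62 without the GC trend. Psmd6 had 11.02 RPKM in OSKM, 12.4 in G3SKM, 7.32 in SKM and 11.5 in empty vector, again with SKM lowest. Psmd12 had 3.21 RPKM in OSKM, 2.92 in G3SKM, 2.54 in SKM and 3.16 in empty vector, and Psmd11 had 1.57 RPKM in OSKM, 1.57 in G3SKM, 1.33 in SKM and 1.5 in empty vector, the narrowest spread of the lid genes. Of the chaperones, Psmd10, known as the oncoprotein gankyrin, had 2.89 RPKM in OSKM, 3.19 in G3SKM, 1.77 in SKM and 2.18 in empty vector. Psmd9 had 1.71 RPKM in OSKM, 1.53 in G3SKM, 2.21 in SKM and 1.23 in empty vector, with SKM highest and the control lowest. Psmc3ip, the gene that is no subunit, had 4.04 RPKM in OSKM, 3.87 in G3SKM, 3.44 in SKM and 3.04 in empty vector.

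SKM cells against empty vector cells had members at log2 ratios from -0.96 to 0.93. Again none of the 35 was called higher, against 8.88% of 10195 genes, or lower, against 5.98%. At the lower bar 6 members were above (28.2% of all genes were) and 4 below (18.2% of all genes were). Psmb6 was 1.92-fold that of empty vector (1.87 to 1.98), and the lid scaffold Psmd3 1.84-fold (1.8 to 1.89), with 18.3 RPKM in SKM, 13.9 in OSKM, 10.5 in G3SKM and 9.90 in empty vector. Psma7, Psmb3, Psmd4 and Psmd9 were the others above, at log2 ratios of 0.75, 0.66, 0.51 and 0.52. Psmd4 is a receptor for ubiquitin chains and Psmd9 a chaperone of the ATPases. Below empty vector were Psmc6, Psma1, Psmd6 and Psma4, at -0.96, -0.72, -0.58 and -0.53. Psmc6 had 3.22 RPKM in SKM cells, against 6.01 in OSKM, 7.52 in G3SKM and 7.22 in empty vector, so SKM alone stood low at 0.446-fold of the control (0.430 to 0.463).

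The SKM ratios of the members went with the GC content of their transcripts, as they did for genes at large. Across the 35 members, Spearman's rho between transcript GC and the log2 ratio was 0.60 where SKM was set against empty vector, and -0.68 where either OSKM or G3SKM was set against SKM. Over all genes it was 0.50 in the first and -0.71 in each of the others, so the members showed the trend of the whole SKM library. Split at a GC of 49.5%, 17 of 18 members with lower GC were below empty vector in SKM cells and 14 of 17 with higher GC were above it. Over all genes, not split by GC, 41.7% were below and 58.3% above. In the comparisons without SKM, rho across members was 0.24 for OSKM and -0.08 for G3SKM over empty vector, and 0.27 for OSKM over G3SKM. These correlations describe genes of shared libraries, which are no independent replicates, and whether GC content or the infection set the SKM ratios was not tested. With the trend taken out, by subtracting the median of genes of like GC in 20 bins, the ratios of SKM against empty vector were 0.86 for Psmb6, 0.69 for Psmb3, 0.50 for Psmd3 and 0.36 for Psma7. On that scale Psmc6 was at -0.37, Psma1 at -0.29, Psmd6 at -0.31 and Psma4 at -0.11. Those genes kept their side of empty vector, but 13 of the 35 members did not. From below to above turned 9, namely Psma2, Psma3, Psmb1, Psmb7, Psmc2, Psmd5, Psmd10, Psmd11 and Psmd14, the furthest being Psmd11 at 0.48 in place of -0.11. From above to below turned 4, Psmb2, Psmb5, Psmc3 and Psmc4. The same removal turned 9 members in OSKM against SKM and 12 in G3SKM against SKM. It turned 4 members in OSKM and 4 in G3SKM against empty vector, and 1 in OSKM against G3SKM. The share of all genes that turned was not computed, so these counts do not set the members apart from genes at large.

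**Figure D3:**
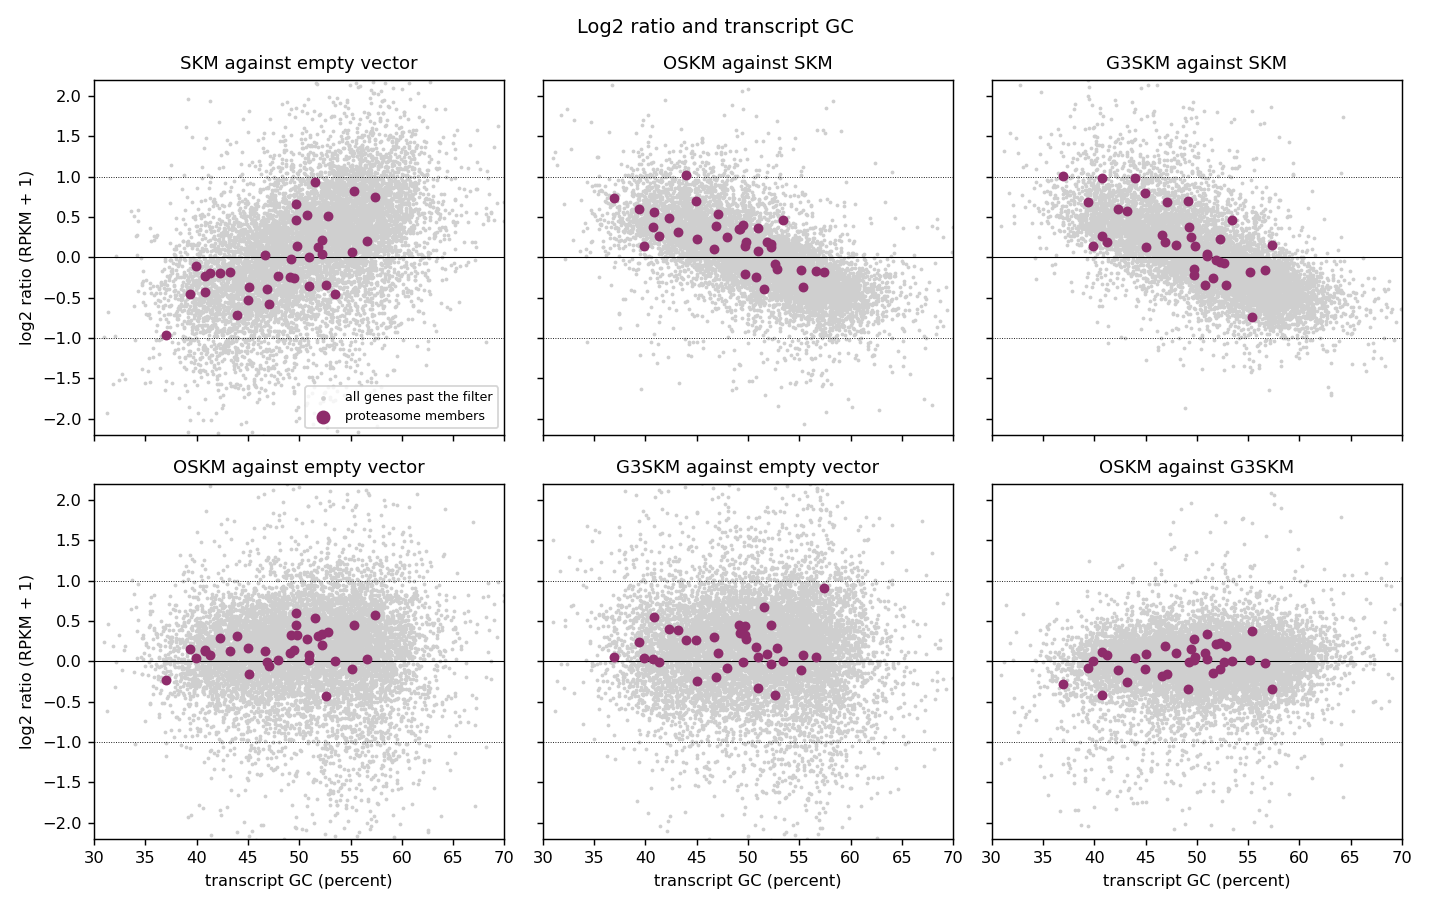
Log2 ratio of (RPKM + 1) against transcript GC in percent for the 6 comparisons, with all genes past the filter in grey and the 35 members in colour, and dotted lines at the rule of size of 1 and -1. The members slope with the grey cloud in the comparisons that hold SKM (rho of 0.60, -0.68 and -0.68) and show much less of a slope in the others, and some genes lie outside the axis drawn.

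OSKM cells against SKM cells, which differ by OCT4 in the labels, had 1 member called higher, against 2.55% of 10211 genes, and none called lower, against 1.64%. It was Psma1, an alpha-ring gene with 11.5 RPKM in OSKM, 11.1 in G3SKM, 5.13 in SKM and 9.07 in empty vector. SKM stood low and the other groups lay near each other, and the OSKM value was 2.24-fold that of SKM (2.15 to 2.33), a log2 ratio of 1.02. With the GC trend taken out it was 0.69, and no member was called higher, against 1.07% of genes. The median member was at 0.22, against -0.01 for all genes, and on the trend-free scale at 0.10, against -0.01. At the lower bar 6 members were above SKM, against 14.6% of all genes, and none below, against 11.5%: Psma1, Psma2, Psma3, Psma4, Psmc6 and Psmd6.

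G3SKM cells against SKM cells, which differ by GATA3 in the labels, also had 1 member called higher, against 4.43% of 10214 genes, and none lower, against 1.1%. It was the ATPase gene Psmc6, at 2.33-fold (2.25 to 2.42) and a log2 ratio of 1.01. With the GC trend taken out it was 0.41, and no member was called higher, against 1.97% of genes. Just under the bar came Psma1 and Psma3, both at 0.98, with trend-free values of 0.62 and 0.48. Over all genes the median was 0.00 and over members 0.16, or -0.01 and 0.03 on the trend-free scale. At the lower bar 9 members were above SKM (17.4% of all genes were) and 1 below (12.7% of all genes were). Of the 9, 5 belonged to the alpha ring (Psma1 to Psma5), and the rest were Psmc6, Psmd6, Psmd10 and Psmd14. The 1 below was Psmd3, with 10.5 RPKM in G3SKM and 18.3 in SKM, at 0.575-fold (0.561 to 0.588) and a log2 ratio of -0.53 without the GC trend. All 7 expressed alpha-ring genes lay above SKM in G3SKM cells, where 49.75% of all genes did, with a median of 0.69. Without the trend the median was 0.48, and all but Psma6 were above 0. Psma2, Psma3, Psma4 and Psma6 among them overlap other listed genes, as given below.

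OSKM cells against G3SKM cells, the comparison that sets OCT4 beside GATA3, gave close profiles, with an interquartile range of 0.21 for members and 0.39 for all genes. No member passed 1, against 0.724% of 10222 genes above and 2.25% below, and none passed 0.5, against 5.06% of genes above and 8.81% below. Over all genes 51.8% were above 0 and 48.2% below, and no difference between the parts of the particle was tested. In the alpha ring 6 of 7 genes were lower in OSKM than in G3SKM, with a median of -0.18, and the furthest were Psma3 (0.693-fold, 0.670 to 0.716), Psma5 (0.721, 0.693 to 0.750) and Psma7 (0.787, 0.774 to 0.801). Of the base, 8 of 9 genes were higher in OSKM, all but Psmc6, though Psmc3 (1.01-fold, 0.991 to 1.03) was within counting error. Psmd2, a scaffold of the base, had 16.9 RPKM in OSKM, 13.1 in G3SKM, 12.9 in SKM and 16.8 in empty vector, so OSKM was within counting error of the control and was 1.29-fold that of G3SKM (1.26 to 1.32). The beta ring had 3 of 7 genes higher in OSKM. The lid was divided, with Psmd3 (1.33-fold, 1.3 to 1.36) and Psmd7 (1.23-fold, 1.2 to 1.25) higher in OSKM and Psmd14 lower (0.744-fold, 0.725 to 0.764). Psmd14 had 1.34 RPKM in OSKM, 1.81 in G3SKM, 0.886 in SKM and 1.14 in empty vector.

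Summed over genes, the alpha ring took 963 RPM (reads scaled to library size, with no division by length) in OSKM, 1136 in G3SKM, 792.5 in SKM and 788 in empty vector. G3SKM stood apart at 1.44 times empty vector and 1.43 times SKM. The beta ring took 977 in OSKM, 992 in G3SKM, 942 in SKM and 794 in empty vector, so the infected groups lay within a narrow band above the control. For the base the sums were 1310 in OSKM, 1187 in G3SKM, 1113 in SKM and 1252 in empty vector, with OSKM and the control above the other groups. The lid took 1142 in OSKM, 1107 in G3SKM, 1026 in SKM and 1061 in empty vector, with an order of SKM and the control that rests on Psmd13, as given below. Over the 37 members the sums were 4507, 4533, 3980 and 3995 in the same groups, a ratio to empty vector of 1.13 in OSKM, 1.13 in G3SKM and 0.996 in SKM. Beside these ratios, the median log2 ratio of (RPKM + 1) of all genes to empty vector was 0.18 in OSKM, 0.17 in G3SKM and 0.15 in SKM. The sums do not take that shift out, so a sum above the control may be no more than the shift of genes at large. A sum is led by the genes with most reads, and Psma6 and Psma7 held the most of the alpha ring.

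**Figure D4:**
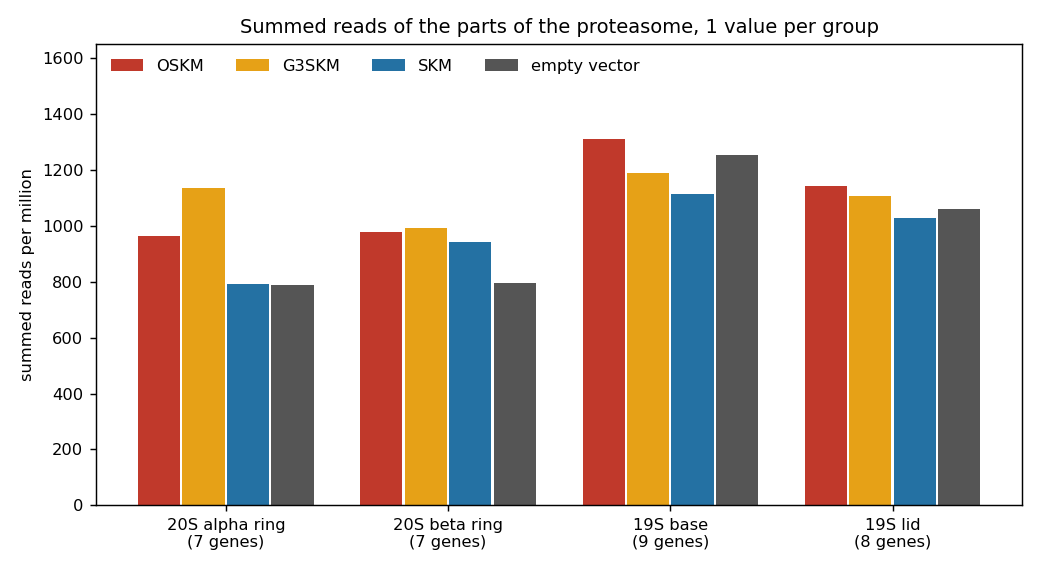
Summed reads scaled to library size (RPM) of the alpha ring, beta ring, base and lid in each group, as bars from 0 with 1 value per group and no error. The G3SKM bar is the highest in the alpha ring (1136) and the empty vector bar the lowest in the beta ring (794), while base and lid differ less.

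Some members share their span with other genes, and how reads in shared stretches were counted is not given, nor does the library kit mark strand. In 9 members an overlapping listed gene held at least 10% of the member's reads in 1 group or more. Among them were the antisense gene 3110056K07Rik at Psma3 (54.8% in OSKM, 50.9% in G3SKM, 54.6% in SKM, 53.5% in empty vector) and Nek6 at Psmb7 (35.7%, 43.8%, 77.0% and 59.6% in those groups). Gm15542, a processed pseudogene, lies in Psmd13 (43.4% in OSKM, 36.2% in G3SKM, 32.6% in SKM and 44.0% in empty vector). Psma2, Psma4, Psma6, Psmb5, Psmc3 and Psmc3ip were the others. How far shared reads move the values of these members is not known. Without these 9, the alpha ring was left with Psma1, Psma5 and Psma7, whose sum was 1.64 times empty vector in G3SKM, 1.37 times in OSKM and 1.22 times in SKM, and the calls were as before. The beta ring was then at 1.29 times empty vector in OSKM, 1.33 in G3SKM and 1.27 in SKM, and the base at 1.07, 0.954 and 0.854 times in those groups. The lid without Psmd13 was at 1.10, 1.054 and 1.03 times empty vector, so SKM was then above the control (870 against 841 RPM). All 28 members left were at 1.16, 1.14 and 1.04 times, again with SKM above. These sums too keep the shift of all genes. Processed pseudogenes may also share reads with their parents: Psmb6-ps had 3.70 RPKM in OSKM, 4.41 in G3SKM, 5.87 in SKM and 2.72 in empty vector, in the order of Psmb6 itself. The groups of 2 other pseudogenes did not stand in their parents' order: Psmb5-ps had 1.58, 1.3 and 1.14 RPKM in OSKM, G3SKM and SKM and 1.34 in empty vector, and Psmb7-ps2 had 5.55, 6.99 and 2.55 RPKM there and 6.12 in empty vector. For Psmd1 the authors' length was not resolved, so its reads and intervals are approximate.

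Of the immunoproteasome genes, which replace the catalytic subunits in immune cells and after interferon, Psmb10 was above empty vector in every infected group. It had 13.7 RPKM in OSKM, 14.4 in G3SKM, 17.9 in SKM and 5.38 in empty vector, with log2 ratios to the control of 1.2, 1.27 and 1.57, all past the rule of size. Psmb8, with 2.36 RPKM in OSKM, 1.34 in G3SKM, 1.94 in SKM and 1.90 in empty vector, was not called, and Psmb9 was not matched in the tables. The 5 factors that assemble the 20S core had medians of 0.55 in OSKM, 0.63 in G3SKM and 0.51 in SKM against empty vector, beside 0.18, 0.17 and 0.15 for all genes. Of these, 1 was called higher in G3SKM (Psmg4), where 7.11% of all genes were, 1 in SKM (Psmg3), where 8.88% were, and none in OSKM, where 4.82% were. Psmg3 had 7.91 RPKM in OSKM, 7.46 in G3SKM, 9.70 in SKM and 3.92 in empty vector. Psmg4, its partner in building the alpha ring, had 2.08, 2.94 and 2.43 RPKM in the infected groups in that order and 0.847 in empty vector. Pomp, a chaperone of core assembly, had 6.55, 6.87 and 5.0 RPKM there and 5.49 in empty vector.

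Nfe2l1, which encodes the regulator NRF1, had 12.7 RPKM in OSKM, 10.4 in G3SKM, 15.0 in SKM and 17.3 in empty vector, below the control in each infected group at log2 ratios of -0.42, -0.69 and -0.20, none of them past the rule. Among the 5 ubiquitin genes and activating enzymes 1 was called in a comparison, Rps27a, which encodes ubiquitin fused to a ribosomal protein. It had 129 RPKM in OSKM, 258 in G3SKM, 73.7 in SKM and 169 in empty vector, at 1.8 for G3SKM against SKM (1.43 without the GC trend) and -1.19 for SKM against empty vector (-0.77 without it). No gene was called in any comparison among the activators and inhibitor, the other 19S subunits and associated enzymes, the NRF1 axis, or the 7 shuttle factors with VCP and its cofactors. Vcp, the unfoldase that delivers substrates, had 12.5 RPKM in OSKM, 11.9 in G3SKM, 11.1 in SKM and 14.3 in empty vector, below the control in each infected group. Ubqln4 of the same list had 6.51 RPKM in OSKM, 5.43 in G3SKM, 6.86 in SKM and 3.39 in empty vector. Its log2 ratios to empty vector, 0.77, 0.55 and 0.84, were the highest of that list in each infected group. Ubqln2 was the lowest of the list in G3SKM, at -0.58, but above the control in OSKM (0.19) and SKM (0.20). The aspartic protease gene Ddi2, whose product cuts NRF1 into its active form, had 1.75 RPKM in OSKM, 1.60 in G3SKM, 1.63 in SKM and 1.22 in empty vector. Psmf1, an inhibitor of the core, had the highest log2 ratio of its list to empty vector in OSKM (0.47) and SKM (0.51), at low levels of 1.46 RPKM in OSKM, 1.09 in G3SKM, 1.52 in SKM and 0.769 in empty vector. Adrm1, a ubiquitin receptor of the base, had 13.8 RPKM in OSKM, 12.9 in G3SKM, 18.7 in SKM and 12.6 in empty vector. Usp14, a deubiquitinase of the 19S particle, had the lowest log2 ratio of its list in SKM against empty vector, -0.79, with 1.63 RPKM in OSKM, 1.58 in G3SKM, 0.848 in SKM and 2.19 in empty vector.

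**Figure D5:**
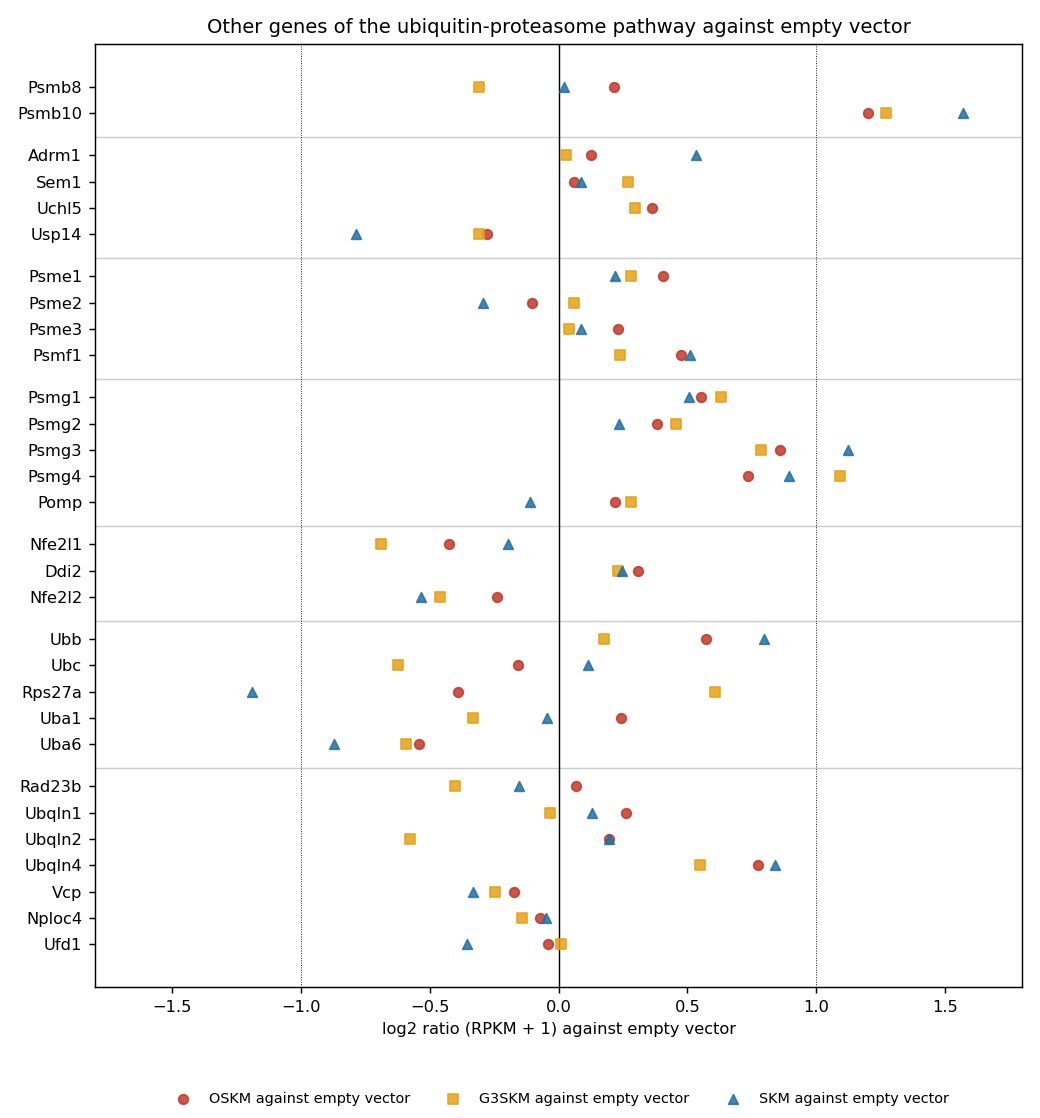
Log2 ratio of (RPKM + 1) against empty vector in OSKM, G3SKM and SKM for other genes of the pathway, ordered as immunoproteasome, other 19S proteins, activators and inhibitor, core assembly factors, NRF1 axis, ubiquitin genes and activating enzymes, and shuttle factors with VCP. Psmb10 lies past the dotted line at 1 in all comparisons, and Rps27a lies past -1 in SKM alone.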

How the data were processed

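The authors' deposited values are RPKM per gene and group, and each of the 3 tables adds the deposited log2 of the ratio of its columns, per the file headers. That log2 differed from the ratio of the columns by at most 0.0017. The build mm9 and the tool TopHat 1.3.0 are listed in the submitters' processing notes. Which program counted the reads, against which gene models, and how the 2 replicates became 1 value is not given in the sources used here. Libraries came from sonicated, amplified cDNA and a kit for DNA, per the labels' protocols.

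Values of 0.001 were set to 0. Symbols, gene spans and transcript GC came from GENCODE M21, which held 91.0% of the listed genes and belongs to a later build, so no coordinates of the files are given. RPKM fit whole reads per span, counted as end minus start, within 0.05 of a read for 74.3% to 76.3% of genes with few reads (10% by chance). Reads of 36 members came from whole multiples, 23 with that span and 6 with the ends of an annotated transcript or RefSeq gene. For the other 7, among them Psma7 and Psmc6, the length was the first in a search to give whole reads within 0.025. Their reads, intervals and sums rest on that search. With 1 value per group no test was run. The rule of size, log2((RPKM + 1)/(RPKM + 1)) of at least 1 or at most -1 among genes at 1 RPKM in a group compared, was run on the whole table and tested on simulated data. All members were taken, with their roles and the pathway lists, and these were chosen with earlier results of these data known. Some genes of these lists and 1 overlapping gene are not reported here. Pathway genes that were named passed the rule or stood at an end of their list in a comparison, but not every gene at an end was named. Values were computed with SciPy 1.17.1, numpy 2.4.6 and pandas 2.3.3 under Python 3.11.15, and drawn with matplotlib 3.10.9. Alternatives were another pseudocount, filter, rule, centring, exon length and removal of the GC trend.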

Additional observations from a re-analysis of the deposited data

How the results depend on the processing

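No paired analysis was possible because each group is 1 deposited sample with its replicates combined, and no replicate could be left out for the same reason. At a bar of 0.5, SKM against empty vector had 6 members higher and 4 lower, OSKM against SKM 6 higher, G3SKM against SKM 9 higher and 1 lower, and OSKM and G3SKM against empty vector 3 higher each. SKM against empty vector gained 1 lower member, Psmc6, with a pseudocount of 0.1 (10.8% of all genes were then lower), with each of the 3 centrings (8.01% to 8.75%) and on exon length (7.15%). OSKM against SKM lost its call (0) with a pseudocount of 5 and with the GC trend taken out, also on exon length. G3SKM against SKM had 3 higher members with a pseudocount of 0.1 (8.2% of all genes were then higher) and with centring on protein-coding genes (5.37%), 4 on exon length (4.07%), and 0 with a pseudocount of 5 and with the GC trend taken out, on either length. The cause was not tested. The median of members ranged from -0.35 to 0.07 for SKM against empty vector, so its sign depends on the setting, from 0.10 to 0.30 for OSKM against SKM and from 0.03 to 0.22 for G3SKM against SKM. It ranged from -0.05 to 0.22 for OSKM and from -0.07 to 0.12 for G3SKM against empty vector, and from -0.01 to 0.02 for OSKM against G3SKM. Leaving out the 9 members that overlap other genes, an alternative chosen after seeing the data, moved no count of calls.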
